A study of Mus musculus with 24 samples.

Results

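MHC class I molecules display peptides from inside the cell at its surface, and 10 genes of that route were followed here through 24 RNA-seq libraries of a mouse ovarian cancer line. The genes were picked by symbol from a table of raw counts with 25229 genes: the heavy chains H2-K1 and H2-D1, the light chain B2m, the peptide transporter Tap1 and Tap2, the loading factor Tapbp, the inducible proteasome subunits Psmb8, Psmb9 and Psmb10, and the transcriptional regulator Nlrc5. The members were all present in the table, and 10 of 10 passed the filter on low counts that left 12941 genes to test.

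The cells were ID8 cells, a mouse ovarian surface epithelial line, with Trp53 knocked out, so every group, controls included, lacks p53 ("ID8 P53 KO" in the labels). They were given vehicle (DMSO), 2.5 µM AU15330, 750 nM cisplatin, or cisplatin with AU15330 for 6 days, with 6 libraries in each of the 4 groups. AU-15330 is a PROTAC, a small molecule that brings SMARCA4 and SMARCA2, the ATPases of the SWI/SNF chromatin remodelling complex, to the ubiquitin ligase machinery for degradation, so the RNA of its targets is no check of the labels. Cisplatin is a platinum drug that crosslinks DNA, and the study used it to drive these cells into senescence. The labels do not say whether the 6 libraries of a group came from separate cultures, so p-values measure the spread between these libraries, which may be technical, and whether the line was grown from 1 clone was not given. The cells were cultured without immune cells.

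Proteins in the cytosol are cut by the proteasome, and under interferon its catalytic subunits PSMB5, PSMB6 and PSMB7 are replaced in newly made particles by PSMB8, PSMB9 and PSMB10. The TAP1/TAP2 transporter moves the peptides into the endoplasmic reticulum, where tapasin (Tapbp) holds the empty heavy chain paired with β2-microglobulin (B2m) next to the transporter until a fitting peptide is bound. NLRC5 is the transactivator that binds, with the RFX and NFY factors, to the promoters of these genes, and tumour cells often keep the whole set low.

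Of the 10 genes, 7 lie on chromosome 17 (mm10). Psmb9, Tap1, Psmb8 and Tap2 sit in a 34.3 kb stretch of the MHC at chr17:34181987-34216321, with Psmb9 on the reverse strand and the other 3 on the forward strand. H2-K1 (chr17:33996017-34000347, reverse strand), Tapbp (chr17:33915899-33929292, forward strand) and H2-D1 (chr17:35262730-35267499, forward strand) lie on either side. B2m is at chr2:122147686-122153083 on the forward strand. Psmb10 (chr8:105935735-105938444, reverse strand) and Nlrc5 (chr8:94434356-94527272, forward strand) are both on chromosome 8.

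The sequences just upstream of the start sites are shown for 5 genes, since the members are known targets of interferon and NF-κB signalling and share parts of their control regions. RefSeq promoter windows (GRCm38.p6, 250 bases before to 50 after the start) matched 8 of the 10 members; Tap2 and Nlrc5 had no entry. Each window was searched on both strands for an interferon-stimulated response element (GAAANNGAAA or TTTCNNTTTC), a gamma-activated site (TTCNNNGAA) and a κB site (GGGNNTTCCC, GGGNNTTTCC, GGAAANNCCC or GGGAANNCCC). Below are the 150 bases from 200 to 51 before the start on the gene's own strand, 5′ to 3′, with matches in capitals.
H2-K1 (chr17:34000398-34000547, reverse strand): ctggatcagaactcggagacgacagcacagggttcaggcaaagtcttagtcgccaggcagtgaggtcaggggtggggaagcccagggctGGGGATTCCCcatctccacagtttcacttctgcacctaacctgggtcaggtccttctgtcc
H2-D1 (chr17:35262894-35263043, forward strand): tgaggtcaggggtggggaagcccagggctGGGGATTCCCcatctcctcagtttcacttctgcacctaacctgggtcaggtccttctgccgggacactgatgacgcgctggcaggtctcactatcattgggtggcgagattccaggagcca
B2m (chr2:122147487-122147636, forward strand): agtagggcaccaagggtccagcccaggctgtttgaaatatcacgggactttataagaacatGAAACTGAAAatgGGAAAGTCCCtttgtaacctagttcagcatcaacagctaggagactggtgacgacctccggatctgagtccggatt
Psmb8 (chr17:34197995-34198144, forward strand): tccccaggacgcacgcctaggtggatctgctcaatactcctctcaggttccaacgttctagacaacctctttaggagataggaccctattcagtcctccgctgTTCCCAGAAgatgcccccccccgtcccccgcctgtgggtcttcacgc
Tap1 (chr17:34187356-34187505, forward strand): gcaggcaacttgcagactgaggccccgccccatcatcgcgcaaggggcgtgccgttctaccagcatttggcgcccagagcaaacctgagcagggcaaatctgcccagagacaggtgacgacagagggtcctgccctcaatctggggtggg

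The same κB letters, GGGGATTCCC, stood in both heavy chain promoters, 111 to 102 bases before the start of H2-K1 and 171 to 162 bases before that of H2-D1. B2m held an interferon-stimulated response element, GAAACTGAAA, and a κB site, GGAAAGTCCC, within the same short stretch. Psmb8 held a gamma-activated site, TTCCCAGAA. The windows of Tap1, Psmb9, Tapbp and Psmb10 held none of these letters. In RefSeq, Tap1 and Psmb9 start 226 bases apart and head away from each other (the wider GENCODE gene models overlap), so the stretch shown for Tap1 is also the region in front of Psmb9. Among all 32851 promoter windows of this length, 3.44% held the response element, 8.3% the gamma-activated site and 3.24% a κB site. A match of letters is a description of the sequence and shows no binding. The search took exact letters only, so a window without a match may still hold a variant of an element. This holds for the response element in the heavy chain windows too.

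Library totals ran from 17592588 to 25260009 counts, and levels are given as CPM, counts per 1000000 of the library total scaled by TMM. Mesothelial and keratin markers of the ovarian surface were present, and 9 of 11 passed the filter: Wt1 was at 845 ± 51.4 CPM (SD, n = 6) in DMSO, whereas the epithelial marker Epcam had 0 to 2 counts in every library. Some markers of this list fell far with AU15330: Krt19 was at 1783 ± 451 CPM in DMSO and 7.01 ± 3.69 CPM with AU15330. Others moved less: Wt1 was at 614 ± 82.9 CPM with AU15330. Vim was at 2635 ± 968 CPM in DMSO and 2791 ± 318 CPM with AU15330. Leukocytes carry much MHC class I, and their 10 markers summed to 6.46 to 18.97 CPM in DMSO, 7.03 to 13.5 with cisplatin, 16.97 to 53.2 with AU15330 and 24.4 to 42.6 with both. Only Cd68, a lysosomal protein, passed the filter, and it made up nearly all of these sums. The pan-leukocyte gene Ptprc never exceeded 5 counts in a library, and Ncr1 was at 0 in all 24. The 4 endothelial markers, of which only Pecam1 passed the filter, summed to 2.87 to 4.28 CPM in DMSO, 8.51 to 12.8 with cisplatin, 0.261 to 0.763 with AU15330 and 0.483 to 1.20 with both, and Kdr never exceeded 1 count. Whether other cells had a part in the results was not tested.

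The first question was whether cisplatin alone raised the antigen presentation genes. All 10 were higher with cisplatin than in DMSO by edgeR's quasi-likelihood test at an adjusted p under 0.05, where 26.0% of all genes tested were higher and 25.7% lower. The median log2 fold change of the members was 1.39, against 0.00 over all genes tested. The increases ran from 0.20 for Tap2 to 2.53 for Psmb8 on the log2 scale, with Nlrc5 coming up from near zero. AU15330 alone also raised 10 of 10 members over DMSO, where 36.2% of all genes were higher and 37.2% lower, with a median log2 fold change of 2.16. With both drugs 10 of 10 were higher than in DMSO (36.8% of all genes higher, 36.5% lower) and the median was 2.15. These comparisons share the DMSO libraries. Nlrc5 had enough counts to be tested only because of its treated libraries, so its calls against DMSO were partly fixed by the filter. The cisplatin call of Tap2 was lost under several alternatives, given below. As bulk samples were measured, a change in the number of cells that express a gene and a change in RNA per cell cannot be told apart.

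**Figure D1:**
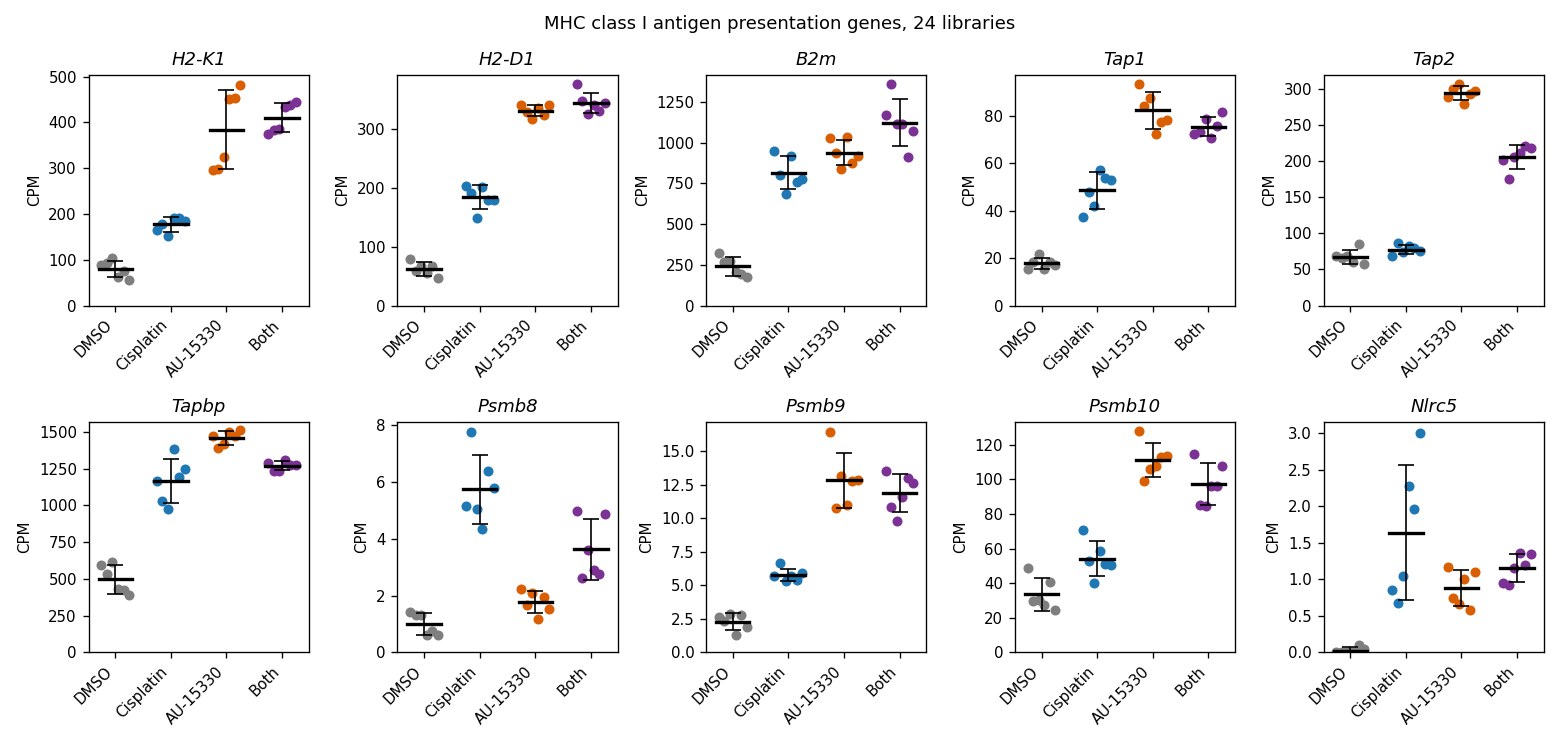
Level of each of the 10 genes in CPM (linear axis from 0) in the 6 libraries of each group, ordered by replicate number, with the mean (line) and SD (bars). All 10 genes are lowest on average in DMSO, Psmb8 and Nlrc5 have their highest mean with cisplatin alone, and Tap2 stays near its DMSO level with cisplatin.

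The heavy chains bind the peptide and span the membrane, and in this strain background the classical ones are H2-K and H2-D. H2-K1 ranged from 56.1 to 103 CPM in DMSO (median 81.2), from 152 to 192 with cisplatin (median 182), from 296 to 482 with AU15330 (median 388) and from 375 to 444 with both (median 409). The DMSO and cisplatin libraries did not overlap each other or the other groups, while AU15330 and the combination did. Cisplatin raised H2-K1 2.23-fold (log2 1.15 ± 0.14 SE, adjusted p = 1.09e-07) and AU15330 raised it 4.81-fold (log2 2.27 ± 0.14, adjusted p = 1.08e-13). With both drugs it was 2.31-fold higher than with cisplatin alone (adjusted p = 1.57e-08).

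H2-D1 ranged from 46.4 to 79.4 CPM in DMSO (median 62.8), from 149 to 204 with cisplatin (median 185), from 317 to 341 with AU15330 (median 332) and from 326 to 376 with both (median 343). It followed the order of H2-K1, with the last 2 groups overlapping. The increase over DMSO was 2.95-fold with cisplatin (log2 1.56 ± 0.09 SE) and 5.31-fold with AU15330 (log2 2.41 ± 0.10), with adjusted p of 3.87e-13 and 1.03e-17. Adding AU15330 to cisplatin gave 1.87-fold more (adjusted p = 1.98e-09), while adding cisplatin to AU15330 gave a log2 difference of 0.06 with a 95% interval of -0.13 to 0.24 (adjusted p = 0.66).

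Classical and non-classical heavy chains are alike in sequence, and how the counting treated reads that match several genes was not given. Of the 70-base windows in the exons of H2-K1, 3.82% also occurred in another gene, and the share for H2-D1 was 5.87%. The counts of 23 heavy chain genes were therefore also summed. The summed level had a median of 264 CPM in DMSO, 561 with cisplatin, 962 with AU15330 and 925 with both. It rose by 1.12 on the log2 scale with cisplatin and by 1.90 with AU15330 over DMSO, each with an exact two-sided permutation p of 0.00217, the smallest that 6 against 6 libraries allow (adjusted over 6 pairs, 0.0026). The combination and AU15330 alone differed by -0.05 (exact permutation p = 0.444).

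The make-up of this pool moved as well. H2-T23, the non-classical heavy chain Qa-1 that is a ligand of the inhibitory NK receptor CD94/NKG2A, held 37.1% of all heavy chain counts in DMSO and 28.9% with cisplatin, 18.2% with AU15330 and 12.5% with both. H2-K1 went from 31.0% in DMSO to 44.5% with both drugs, and H2-D1 from 24.1% to 37.5%. H2-T23 itself rose by 0.74 ± 0.09 (log2 ± SE) with cisplatin and by 0.85 ± 0.09 with AU15330. With both it was 0.26 ± 0.09 above DMSO and lower than with cisplatin alone, by a log2 difference of -0.48 ± 0.09. Against AU15330 alone the difference was -0.59 ± 0.09, so this gene had less RNA with both drugs than with either alone.

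The light chain B2m is needed by most class I heavy chains to leave the endoplasmic reticulum. It ranged from 177 to 322 CPM in DMSO (median 237), from 682 to 951 with cisplatin (median 792), from 841 to 1033 with AU15330 (median 930) and from 914 to 1358 with both (median 1115). The 3 treated groups overlapped each other, and none overlapped DMSO. B2m rose 3.40-fold with cisplatin (log2 1.76 ± 0.12 SE, adjusted p = 7.98e-12), 3.91-fold with AU15330 (1.97 ± 0.12, adjusted p = 1.66e-13) and 4.68-fold with both (2.23 ± 0.13, adjusted p = 1.78e-14). The difference between the single drugs, 0.20 on the log2 scale with a 95% interval of -0.05 to 0.45, did not pass the test (adjusted p = 0.132; 0.0472 when scaled by total counts).

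Set against its partners, B2m moved in opposite directions with the single drugs. The ratio of B2m counts to the summed counts of H2-K1 and H2-D1 ranged from 1.38 to 1.93 in DMSO (median 1.73), from 2.04 to 2.58 with cisplatin (median 2.23), from 1.12 to 1.61 with AU15330 (median 1.31) and from 1.19 to 1.86 with both (median 1.50). Every cisplatin library was above every library of the other groups. Cisplatin raised the ratio by 0.42 on the log2 scale (exact permutation, adjusted p = 0.00289 over 24 ratio tests), and AU15330 lowered it (-0.35, exact permutation, adjusted p = 0.0173). Without replicate 4 or without replicate 6 the second difference was -0.34 or -0.29 with an adjusted exact permutation p of 0.0544 in each case.

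Tap1 and Tap2 make the transporter as a heterodimer, and with cisplatin their fold changes were far apart in size. Tap1 ranged from 15.5 to 21.7 CPM in DMSO (median 17.7), from 37.5 to 57.1 with cisplatin (median 50.5), from 72.5 to 93.3 with AU15330 (median 81.3) and from 70.8 to 81.4 with both (median 74.4). Tap2 ranged from 57.6 to 84.8 CPM in DMSO (median 67.0), from 68.1 to 86.2 with cisplatin (median 77.2), from 278 to 307 with AU15330 (median 294) and from 175 to 220 with both (median 208). For Tap1 the cisplatin libraries were all above DMSO, whereas for Tap2 the 2 groups overlapped.

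Cisplatin raised Tap1 2.73-fold (log2 1.45 ± 0.10 SE, adjusted p = 3.09e-12) and Tap2 1.15-fold (log2 0.20 ± 0.08, adjusted p = 0.0339). The call for Tap2 was lost without replicate 2, 4 or 6 (adjusted p = 0.117, 0.186 and 0.129), with no filter on low counts (0.103) and when DMSO and cisplatin libraries were fitted alone (0.127). In libraries 1 to 3 and 4 to 6 alone its increase was 0.17 and 0.21 and missed the threshold (edgeR, adjusted p = 0.228 and 0.150). AU15330 raised both, Tap1 4.62-fold and Tap2 4.35-fold (adjusted p = 1.09e-16 and 4.47e-18). Tap2 was the only member called lower with both drugs than with AU15330 alone in the fit of all 24 libraries, by a log2 difference of -0.52 ± 0.08 (adjusted p = 6.58e-06), and all 6 combination libraries were below all 6 AU15330 libraries. For Tap1 the same difference was -0.13 with a 95% interval of -0.32 to 0.07. The annotated exons of Tap2 overlap those of other genes over 18.5% of their length, and those of Tap1 overlap Psmb9 over 3.87%; whether reads were counted by strand was not given.

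Tapbp was the member with the most counts in DMSO. It ranged from 388 to 612 CPM in DMSO (median 480), from 973 to 1381 with cisplatin (median 1179), from 1388 to 1513 with AU15330 (median 1469) and from 1234 to 1310 with both (median 1275). The combination libraries fell within the range of the cisplatin libraries and below those with AU15330. Tapbp rose 2.35-fold with cisplatin (log2 1.23 ± 0.10 SE, adjusted p = 1.17e-10) and 2.94-fold with AU15330 (1.55 ± 0.10, adjusted p = 2.17e-13). The combination differed from AU15330 alone by -0.20 (95% interval -0.40 to 0.00, adjusted p = 0.105), a difference that passed when only those 2 groups were fitted (adjusted p = 0.00129). Annotated exons of Tapbp overlap other genes, Zbtb22 among them, over 29% of their length.

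**Figure D2:**
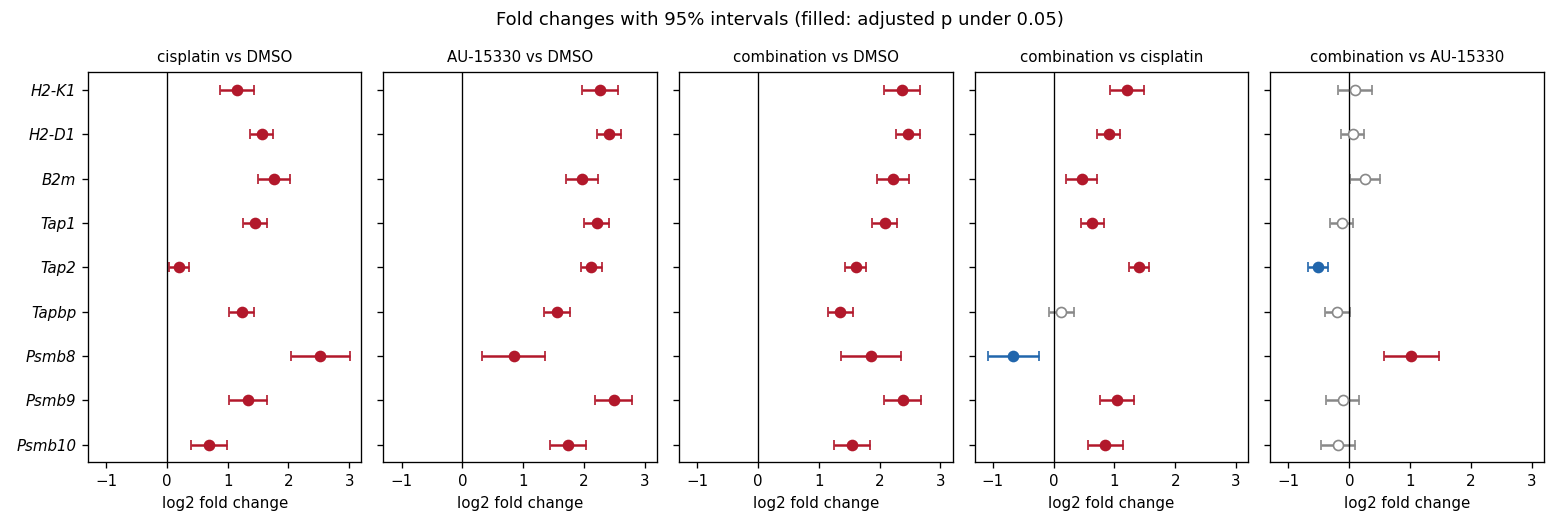
Log2 fold change (x axis) of 9 genes in 5 comparisons, with 95% intervals; filled points passed the test (red higher, blue lower), and Nlrc5 is left out because its DMSO libraries held 3 counts in all. Psmb8 is the gene that is lower with both drugs than with cisplatin (-0.66) and higher than with AU-15330 (1.02), and Tap2 has the smallest increase with cisplatin (0.20).

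The 3 inducible catalytic subunits of the proteasome did not move alike. Psmb8 (LMP7, the chymotrypsin-like subunit) ranged from 0.604 to 1.42 CPM in DMSO (median 1.03), from 4.34 to 7.78 with cisplatin (median 5.48), from 1.19 to 2.25 with AU15330 (median 1.81) and from 2.63 to 4.97 with both (median 3.25). Cisplatin libraries lay above all those with DMSO or AU15330 and overlapped those with both drugs. The level was low, with 13 counts in the lowest DMSO library. Cisplatin raised Psmb8 5.76-fold (log2 2.53 ± 0.23 SE, adjusted p = 1.50e-09) and AU15330 1.79-fold (0.84 ± 0.25, adjusted p = 0.00381), the latter 0.57 and past no threshold in libraries 1 to 3 alone (adjusted p = 0.108). AU15330 alone was 3.22-fold below cisplatin alone (adjusted p = 1.10e-07).

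Adding AU15330 to cisplatin lowered Psmb8, by a log2 difference of -0.66 ± 0.20 (adjusted p = 0.00561); without replicate 2 the difference was -0.48 and missed the threshold (adjusted p = 0.0569). Adding cisplatin to AU15330 raised it 2.03-fold (adjusted p = 0.000531), and Psmb8 was the only member called higher in that comparison in the fit of all 24 libraries. Annotated exons of Psmb8 overlap the gene model Gm20496 over 14.7% of their length.

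Psmb9 (LMP2), which replaces the caspase-like subunit, was highest in the 2 groups given AU15330. It ranged from 1.30 to 2.85 CPM in DMSO (median 2.50), from 5.33 to 6.64 with cisplatin (median 5.69), from 10.7 to 16.4 with AU15330 (median 12.8) and from 9.82 to 13.5 with both (median 12.1). The increase was 2.52-fold with cisplatin (adjusted p = 3.93e-08) and 5.60-fold with AU15330 (adjusted p = 3.69e-14). Psmb10 (MECL-1), which takes the place of the trypsin-like subunit, ranged from 24.3 to 48.9 CPM in DMSO (median 29.8), from 40.0 to 70.4 with cisplatin (median 52.0), from 98.7 to 128 with AU15330 (median 110) and from 84.5 to 115 with both (median 96.2). It rose 1.62-fold with cisplatin, where the groups overlapped (adjusted p = 0.000169), and 3.32-fold with AU15330 (adjusted p = 2.43e-11). In the libraries numbered 1 to 3 alone the increase with cisplatin was 0.59 on the log2 scale (adjusted p = 0.0602).

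Each inducible subunit was then set against the constitutive subunit it replaces. Psmb5 and Psmb6 passed the test in none of the 6 pairs of groups; their log2 differences ran from -0.16 to 0.20 and from -0.14 to 0.23. Psmb7 was higher with both drugs than with DMSO (0.39), cisplatin (0.27) or AU15330 (0.30). In counts, Psmb8 stood to Psmb5 as 0.0406 to 1 in DMSO (median of 6 libraries), 0.291 with cisplatin, 0.0768 with AU15330 and 0.144 with both. The ratio of Psmb9 to Psmb6 had medians of 0.0183, 0.0504, 0.110 and 0.0833 in the same order. That of Psmb10 to Psmb7 had medians of 0.291, 0.440, 0.921 and 0.630. So the first ratio was highest with cisplatin and the other 2 were highest with AU15330.

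The first ratio rose by 2.66 on the log2 scale with cisplatin and by 0.81 with AU15330 over DMSO (exact permutation, adjusted p = 0.00289 and 0.0331). The second value no longer passed without replicate 1, 4, 5 or 6, where it ran from 0.59 to 0.80 (adjusted exact permutation p from 0.0693 to 0.104). The ratio of Psmb9 to Psmb6 rose by 1.50 with cisplatin and by 2.62 with AU15330, and that of Psmb10 to Psmb7 by 0.59 and 1.66, each with an adjusted exact permutation p of 0.00289. Adding cisplatin to AU15330 raised the Psmb8 ratio by 0.95 and lowered the Psmb9 and Psmb10 ratios, by -0.33 and -0.49 (adjusted exact permutation p = 0.00289, 0.0104 and 0.00289). Psmb9 (-0.11) and Psmb10 (-0.19) themselves did not pass in that comparison, and the denominators were at 0.22 (Psmb6, not called) and 0.30 (Psmb7, higher). Of the windows of Psmb5, 40.1% also occur elsewhere in the transcriptome, mainly in Gm3375.

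**Figure D3:**
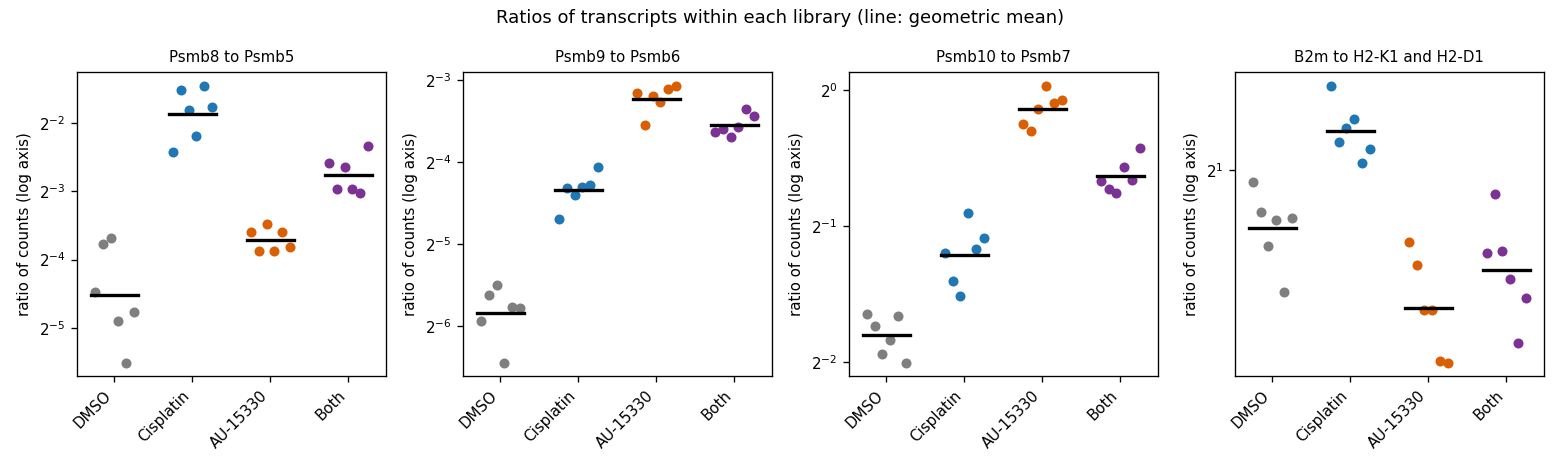
Ratio of counts within each library on a log axis, for 3 inducible over constitutive proteasome subunits and for B2m over H2-K1 plus H2-D1; points are the 6 libraries of each group and lines the geometric means. Psmb8 to Psmb5 is highest with cisplatin (0.187 to 0.364), while Psmb10 to Psmb7 is highest with AU-15330 (0.811 to 1.02).

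Nlrc5, the regulator of the set, was hardly detected in DMSO. Its 6 DMSO libraries held 3 counts together, with 0 in 4 of them, and 3 counts in a library would correspond to 0.12 to 0.186 CPM. It ranged from 0.682 to 3.01 CPM with cisplatin (median 1.50), from 0.583 to 1.17 with AU15330 (median 0.875) and from 0.921 to 1.36 with both (median 1.17). All treated libraries were above all DMSO libraries, and the treated groups overlapped each other. The ratio of summed counts to DMSO, scaled by library size, was 66.8 with cisplatin (exact 95% interval 22.6 to 326), 34.7 with AU15330 (11.6 to 171) and 46.0 with both (15.4 to 226). These intervals cover counting error only, and 2 of the 3 DMSO counts came from replicate 5. The adjusted p of the 3 comparisons were 3.86e-09, 9.67e-08 and 1.19e-08. Nlrc5 passed the filter on low counts only through its treated libraries, so these calls were partly fixed by that filter.

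Nlrc5 was lower with AU15330 than with cisplatin, by a log2 difference of -0.91 ± 0.31 (SE; adjusted p = 0.0113). With cisplatin the libraries numbered 4 to 6 held 1.96 to 3.01 CPM and those numbered 1 to 3 held 0.682 to 1.04. The difference was -0.0002 in libraries 1 to 3 and -1.43 in libraries 4 to 6; this split was chosen after these values were seen, so these 2 values are a description. It missed the threshold without replicate 5 (-0.75, adjusted p = 0.0561) or replicate 6 (-0.71, adjusted p = 0.0644).

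H2-K1 also split by replicate number. In none of the 4 groups did libraries 1 to 3 overlap libraries 4 to 6: in DMSO they held 87.7 to 103 and 56.1 to 74.7 CPM, with cisplatin 152 to 179 and 186 to 192, with AU15330 296 to 325 and 451 to 482, and with both 375 to 386 and 433 to 444. The first set was thus higher in DMSO and lower under each treatment. The increase with cisplatin was 0.80 on the log2 scale in libraries 1 to 3 and 1.54 in libraries 4 to 6. With AU15330 it was 1.69 on the log2 scale in libraries 1 to 3 and 2.83 in libraries 4 to 6, and passed in each (adjusted p = 1.16e-08 and 1.21e-12). The combination was above AU15330 alone by 0.28 in the first set and below it, at -0.11, in the second, with neither passing the test (adjusted p = 0.057 and 0.336). For H2-D1, Psmb9 and Psmb10 the 2 sets overlapped in every group. B2m, Tapbp and Psmb8 also split in DMSO, where B2m held 269 to 322 CPM in libraries 1 to 3 and 177 to 205 in libraries 4 to 6, Tapbp 532 to 612 and 388 to 428, and Psmb8 1.30 to 1.42 and 0.604 to 0.754. With both drugs B2m held 1115 to 1358 and 914 to 1114 CPM and Nlrc5 0.921 to 1.15 and 1.20 to 1.36, and with cisplatin Tapbp held 973 to 1167 and 1191 to 1381 CPM. The increase with cisplatin was 0.86 and 1.61 on the log2 scale for Tapbp in the 2 sets and 2.15 and 3.05 for Psmb8, past the threshold in each. Tap1 and Tap2 split under some treatments only. The labels do not say what the replicate numbers stand for, and the split was noticed in these data.

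**Figure D4:**
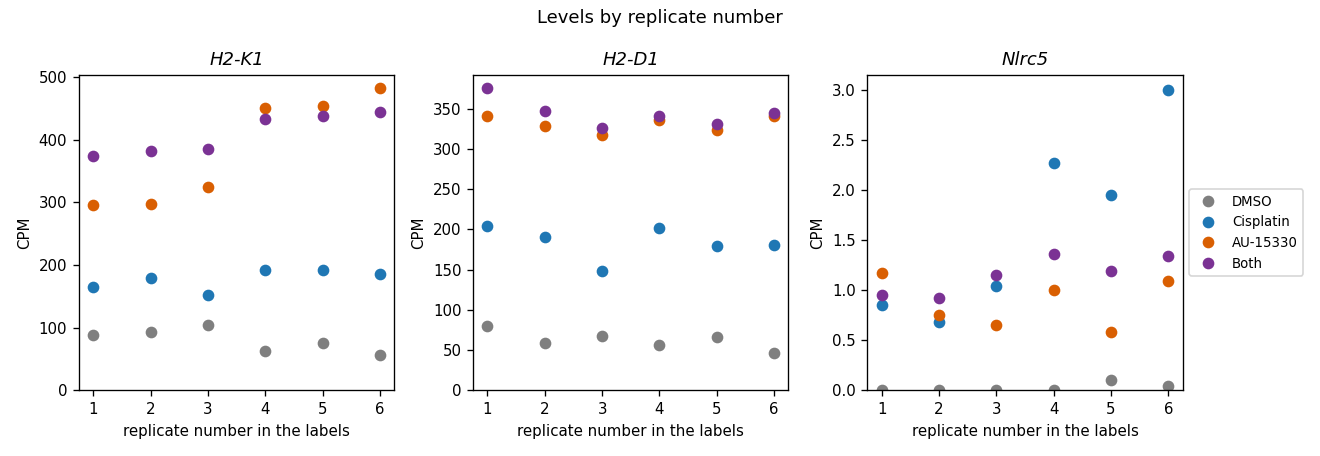
Levels of H2-K1, H2-D1 and Nlrc5 in CPM (linear axis from 0) by the replicate number of the library, 1 library per group and number. H2-K1 with AU-15330 lies at 296 to 325 CPM in replicates 1 to 3 and at 451 to 482 CPM in replicates 4 to 6, whereas H2-D1 shows no such step, and Nlrc5 with cisplatin exceeds 1.95 CPM only in replicates 4 to 6.

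The combination was then compared with each drug alone. Against cisplatin, 7 of 10 members were higher, 1 (Psmb8) was lower and 2 (Tapbp and Nlrc5) passed in neither direction, where 35.4% of all genes tested were higher and 32.7% lower; the median log2 difference was 0.74, against 0.04 over all genes. Tap2 (1.40), H2-K1 (1.21) and Psmb9 (1.04) had the widest increases. Against AU15330 alone, 1 member was higher, 1 lower and 8 did not pass, where 22.2% of all genes were higher and 19.5% lower, and the median was -0.03. For those 8 the 95% intervals of the log2 difference lay between -0.47 and 1.08, with B2m at 0.01 to 0.51 (adjusted p = 0.088; 0.0133 when only those 2 groups were fitted). AU15330 against cisplatin gave 7 members higher, 2 lower (Psmb8 and Nlrc5) and 1 not called (B2m), where 35.8% of all genes were higher and 37.3% lower.

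The effect of AU15330 differed with and without cisplatin for every member. The interaction, the effect of AU15330 in the presence of cisplatin minus that in its absence, was below 0 and passed the test for 10 of 10 genes, with a median of -1.47, where 17.9% of all genes had a positive and 15.8% a negative interaction. The log2 increases of the single drugs summed to 3.42 for H2-K1, where the combination reached 2.36, and to 3.97 for H2-D1, where it reached 2.46. For Tap2 the sum was 2.32 and the combination reached 1.60. The combination was within 0.26 of the larger single increase for H2-K1, H2-D1, B2m, Tap1, Tapbp, Psmb9 and Psmb10, and below it for Tap2 (-0.52) and Psmb8 (-0.66).

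**Figure D5:**
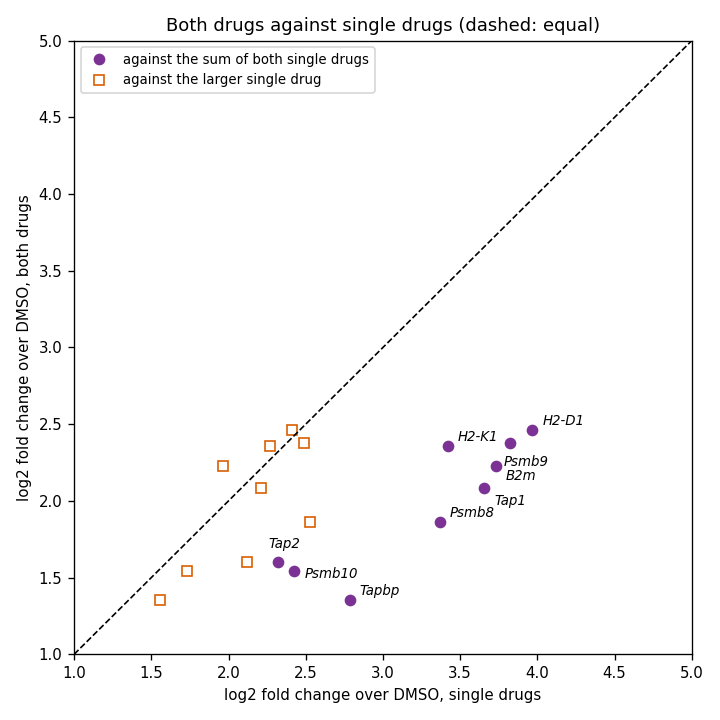
Log2 fold change over DMSO with both drugs (y axis) against the sum of the 2 single-drug changes (circles, named) and the larger of them (squares), for 9 genes without Nlrc5; the dashed line marks equality. All circles lie below the line, while squares lie near it, the furthest below being Psmb8 at 1.86 against 2.53.

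Compared between genes per kilobase of transcript, B2m was the most abundant member in DMSO at 279 ± 65.4 CPM per kb (SD, n = 6), ahead of Tapbp (171 ± 33.3), H2-K1 (49.3 ± 11.3) and H2-D1 (29.7 ± 5.42). Psmb10 (25.5 ± 7.12) and Tap2 (19.6 ± 2.77) followed; the means of H2-D1 and Psmb10, and of Psmb10 and Tap2, lay within 1 SD of Psmb10 of each other. Tap1 (6.02 ± 0.782), Psmb9 (1.70 ± 0.442) and Psmb8 (0.617 ± 0.234) were lower, and Nlrc5 was last at 0.00339 ± 0.00584. The order was the same with cisplatin and with both drugs; with AU15330 Tap2 (85.3 ± 2.83) and Psmb10 (84.7 ± 7.56) changed places within their spread. At their highest, Psmb8 reached 3.53 ± 0.745 CPM per kb with cisplatin and Psmb9 9.48 ± 1.51 with AU15330.

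Of the other 21 heavy chain genes listed, 8 had enough counts to test. Cisplatin raised 6 and lowered 1 of them (26.0% and 25.7% of all genes), AU15330 raised 7 (36.2% of all genes), and with both drugs 7 were above DMSO (36.8%). H2-T24 (2.70 ± 0.20, log2 ± SE), H2-Q4 (3.26 ± 0.61, from 4 counts over the DMSO libraries) and H2-M2 (3.82 ± 0.60, from 9 counts) had large increases with cisplatin. H2-Q4 was 3.04 ± 0.30 higher and H2-M2 lower (-2.43 ± 0.49) with both drugs than with cisplatin. H2-M2 passed the filter through its cisplatin libraries alone, with 17 to 38 counts there and at most 10 in any other library. H2-Q4 passed through the libraries given AU15330. Calls of these genes that involve those groups were partly fixed by the filter.

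Several general chaperones and oxidoreductases of the endoplasmic reticulum were lower with cisplatin. Of 12 further loading genes, cisplatin raised 2 and lowered 6 (26.0% and 25.7% of all genes), AU15330 raised 3 and lowered 4 (36.2% and 37.2%), and the combination was above cisplatin for 4 and below for 1 (35.4% and 32.7%). The shares with AU15330 were near those of all genes. The endoplasmic reticulum chaperone Hspa5 fell by 1.64 ± 0.19 (log2 ± SE) with cisplatin, with Pdia6 (-0.75) and P4hb (-0.74) also lower, and AU15330 alone lowered them as well (-1.91, -0.70 and -1.20). The DMSO libraries of Hspa5 ran from 814 to 3810 CPM and overlapped those with cisplatin. The lectin chaperones Calr (-0.31) and Canx (-0.22) and the oxidoreductase Pdia3 (-0.27), which sit in the loading complex beside tapasin, fell slightly with cisplatin. With both drugs Calr was higher than in DMSO (0.39 ± 0.09), with cisplatin (0.71 ± 0.10) or with AU15330 (0.33 ± 0.09). Erap1, which trims peptides to class I length, rose by 0.49 ± 0.08 with cisplatin and 2.23 ± 0.08 with AU15330. Tapbpl, a tapasin relative that edits peptides outside the complex, rose by 0.72 ± 0.10 and 0.32 ± 0.10. Lnpep, another aminopeptidase, was 1.65 ± 0.28 higher with both drugs than with cisplatin. AU15330 alone raised Lnpep by 2.22 ± 0.29 over DMSO, and the combination against AU15330 did not pass (-0.58).

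Most of the 19 other proteasome genes did not pass with the single drugs: cisplatin raised 4 and lowered 1 (26.0% and 25.7% of all genes), and AU15330 raised 7 and lowered 1 (36.2% and 37.2%), the number raised being near the share of all genes. With both drugs 13 were above DMSO and 1 below (36.8% and 36.5%). The PA28 regulator subunits Psme1 and Psme2, which are induced by interferon like the inducible subunits, had the largest increases of this list with either single drug. Psme1 rose by 0.44 ± 0.12 with cisplatin and 1.75 ± 0.12 with AU15330, and Psme2 by 0.76 ± 0.11 and 2.55 ± 0.12. Both were lower with the combination than with AU15330 alone (-0.47 and -0.48). Psma6 was 0.96 ± 0.13 higher and Psme4 lower (-0.72 ± 0.08) with both drugs than with cisplatin. AU15330 alone moved them the same way against DMSO (1.27 ± 0.13 and -0.93 ± 0.08). The combination against AU15330 passed for neither (-0.24 and 0.00).

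Among 28 tested regulators other than Nlrc5, cisplatin raised 8 and lowered 5, AU15330 raised 11 and lowered 8, and the combination against cisplatin gave 13 higher and 7 lower (35.4% and 32.7% of all genes). The counts with the single drugs were near or below the shares of all genes in those comparisons (26.0% higher and 25.7% lower with cisplatin, 36.2% and 37.2% with AU15330). Stat2 (2.57 ± 0.13, log2 ± SE) and Irf9 (2.47 ± 0.08), which act together in type I interferon signalling, rose with cisplatin, as did the feedback inhibitor Socs1 (1.58 ± 0.15); with AU15330 their increases were 2.08, 2.82 and 2.46. Irf1, a direct activator of class I promoters, rose by 0.89 ± 0.10 with cisplatin, 2.53 ± 0.11 with AU15330 and 2.36 ± 0.11 with both. Rfx5, the DNA-binding partner of NLRC5, rose by 0.64 ± 0.10 with AU15330, and its 0.24 with cisplatin did not pass. The other RFX and NFY genes listed did not follow it: with AU15330 some were called higher and some lower. With cisplatin those called were lower. Stat2 (-0.61 ± 0.12) and Ifngr2, a chain of the interferon-γ receptor (-0.57 ± 0.07), were lower with both drugs than with cisplatin. AU15330 alone lowered Ifngr2 against DMSO (-0.53 ± 0.07). The combination against AU15330 passed for neither gene (-0.12 and 0.13).

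MHC class II genes, which load peptides from outside the cell, were mostly near zero, with 3 of 11 tested. H2-DMb1, a peptide editor of class II, was 1.32 ± 0.24 higher with cisplatin than in DMSO and 3.17 ± 0.18 higher with both drugs than with cisplatin; AU15330 alone raised it by 4.44 ± 0.21, and the combination against AU15330 did not pass (0.05, 95% interval -0.26 to 0.36). In the same list, H2-DMa rose by 0.70 ± 0.18 with cisplatin. The invariant chain Cd74 was lower with both drugs than with cisplatin (-2.27 ± 0.51). AU15330 alone also lowered Cd74 against DMSO (-2.51), and the combination against AU15330 did not pass (1.14). The DMSO libraries of Cd74 ran from 0.433 to 13.4 CPM. Ciita, the class II counterpart of Nlrc5, fell under the filter, with 5 counts over the DMSO libraries, 78 with cisplatin, 3 with AU15330 and 9 with both. Of 9 class I-like genes 5 were tested, and the neonatal Fc receptor chain Fcgrt was far lower with both drugs than with cisplatin (-4.56 ± 0.28). AU15330 alone lowered it to a like degree against DMSO (-5.30 ± 0.29), and the combination against AU15330 alone did not pass (0.30, 95% interval -0.48 to 1.07).

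Across the 24 libraries the genes outside these lists whose log2 CPM ran closest to H2-K1 were H3c2 (r = 0.97), Gm15246, Tor3a, Herc6 and Tlr2. Those closest to Nlrc5 were Parp14 (r = 0.97), Oas1a, Mx2, Lgals3bp and Trim12c. H3c2, Gm15246 and Oas1a averaged only 0.0287, 0.271 and 0.148 CPM in DMSO, so their values there rest on few counts. Over the 45 pairs of members r ran from 0.05 to 0.98 with a median of 0.88; after removing the group means it ran from -0.30 to 0.86 with a median of 0.37. The values share 4 treatments and are a description.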

How the data were processed

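Poly(A) RNA was sequenced from 24 libraries (4 groups of 6), each on 2 lanes. The authors deposited raw counts per gene and lane, and the submitters' processing notes name STAR 2.7.1a, DESeq2 1.36.0 and mm10; the counting program, its strand setting and its annotation are not given in the sources used here. Lanes were summed per library, giving 17592588 to 25260009 counts. Genes were filtered (filterByExpr), scaled by TMM and tested with the quasi-likelihood F test of edgeR 4.0.16 (R 4.3.3) in 1 fit of all 24 libraries, without a replicate block, with Benjamini-Hochberg adjustment over 12941 genes and a threshold of 0.05. Intervals of fold changes used 20 residual degrees of freedom. Ratios (log2, 0.5 added to each count) and the heavy chain sum were tested by exact two-sided permutation (924 regroupings). Levels per kb used the longest principal transcript of GENCODE M21, and promoters came from RefSeq. The members, the wider lists and the splits by replicate number were chosen with earlier results of these data known. Named genes were the members, 15 fixed genes of the wider lists (1 of them is not reported here), up to 3 further called genes per list for cisplatin against DMSO and up to 2 for the combination against cisplatin. DESeq2 1.42.0, other scalings, filters and pseudocounts, each replicate number left out, groups fitted in pairs and a replicate block were tried. The scripts were tested on simulated data. Another cisplatin dose is named elsewhere in the study for these cells; the labels' dose is used here.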

Additional observations from a re-analysis of the deposited data

Results flagged for a closer look

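The effect of AU15330 differed with and without cisplatin for each of the 10 genes, by edgeR's test of the interaction (log2, effect with cisplatin minus effect without). Among the heavy and light chains it was -1.06 for H2-K1, -1.50 for H2-D1 and -1.51 for B2m. It was -1.57 for Tap1, -0.72 for Tap2 and -1.43 for Tapbp. The proteasome subunits Psmb8, Psmb9 and Psmb10 gave -1.50, -1.45 and -0.88. For Nlrc5 it was -5.34, a fitted value that rests on 3 counts over the DMSO libraries and is no bound. For H2-K1 it was -0.51 in libraries 1 to 3 and -1.65 in libraries 4 to 6, past the threshold in each. The adjusted p ran from 1.30e-09 (Tap1) to 0.00098 (Psmb10); in libraries 1 to 3 alone the value for Psmb10 was -0.85 and missed the threshold (adjusted p = 0.0968). In none of the 40 sets of 6 libraries, 1 per gene and treatment, did a single library stand apart by Dixon's test, where chance gives about 2.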

How the results depend on the processing

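Of 970 values of single members recomputed under the alternatives, 946 kept their direction and their side of the threshold, 14 lost and 6 gained a call, and 4 that were not called changed sign: in libraries 4 to 6, H2-K1 (-0.11) and H2-D1 (-0.0099) with both drugs against AU15330 and Tapbp (-0.0148) with both against cisplatin, and in libraries 1 to 3, Nlrc5 (0.20) with both against cisplatin. The heavy chain sum, with only H2-K1 and H2-D1 in it, was 0.084 with both drugs against AU15330, where all 23 genes gave -0.05. At least 8 members were higher and 0 lower than DMSO for each treatment in every setting. The count lower with both drugs than with cisplatin was 1 and ran from 0 to 1 when a replicate was left out (0 without replicate 2), with 2 in libraries 4 to 6 alone, a set chosen after seeing the data. The count lower with AU15330 than with cisplatin was 2 and ran from 1 to 2 when a replicate was left out (1 without replicate 5 or 6), with 1 in libraries 1 to 3 alone. Against AU15330, the combination was higher for 2 members, B2m joining Psmb8, with the replicate block (B2m adjusted p = 0.0377) and when only the compared groups were fitted (0.0133), and lower for 2, Tapbp joining Tap2, in libraries 4 to 6 and when only the compared groups were fitted; the cause of these changes was not tested. The replicate numbers were not taken as pairs, since not every same-numbered pair deviated together: deviations from the group means correlated above 0.1 in 23 of 36 same-numbered pairs (mean 0.14) and in 35 of 180 other pairs (mean -0.03), and 10 of 24 libraries were on average closest to their own number, a hint of pairing from the data. With the block the genes higher with cisplatin numbered 3702, against 3360 without it. With the block, 98 of 100 values kept their call; Psmb8 to Psmb5 with AU15330 lost it (adjusted p = 0.0652). Scaling by total counts moved the median of all genes against DMSO by 0.13 for AU15330 and 0.14 for the combination, and gave 3977 genes higher and 2529 lower with cisplatin where TMM gave 3360 and 3329. Low counts limit Nlrc5 and Psmb8.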
